A study of Mus musculus with 12 samples.

Results

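The inducible heat shock chaperones are a small group of cytosolic proteins that bind unfolded or damaged proteins and help them refold or be cleared. They were taken as every probe set whose platform annotation named a single gene out of 10 listed chaperone genes. The rule found 23 of the 45101 probe sets on the array, and these stood for 9 of the 10 genes, out of 18194 genes named singly on the array. Hsp90ab1, which encodes the constitutive form of HSP90, was not analysed here. All 23 probe sets passed the filter on low signals, so no member was lost to it. Hsp90aa1 had 5 probe sets, Hspa8 4, Hspa1b and Cryab 3 each, Hsph1, Dnajb1 and Hspb1 2 each, and Hspa1a and Bag3 1 each. A gene was read from its brightest probe set, by mean log2 signal, and the others are given after the main comparisons.

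RNA came from whole kidneys of male mice aged 8 weeks. Wild-type (WT) mice were of strain C57BL/10, and TLR4 null (TLR4-/-) mice were of the substrain C57BL/10ScNJ. Toll-like receptor 4 is an innate immune receptor for bacterial lipopolysaccharide, and extracellular heat shock proteins have been proposed as further ligands. All mice lost the right kidney. In the ischemic groups a clip then closed the left renal pedicle for 23 min, in the sham groups the clip was only laid beneath it, and the left kidneys were taken 4 h later. Each of the 4 groups (WT sham, WT ischemic, TLR4 null sham and TLR4 null ischemic) had 3 arrays, which the labels call biological replicates. TLR4 is missing from every cell of the null animals, and the strains are separate inbred lines, so other differences of substrain and the loss of TLR4 cannot be told apart. Because both surgeries included a nephrectomy, the sham kidneys are operated kidneys of mice with 1 kidney and not untouched ones.

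Heat shock genes are controlled chiefly by the transcription factor HSF1. In resting cells HSF1 is held inactive by chaperones. Misfolded proteins draw the chaperones away, and freed HSF1 forms trimers and binds heat shock elements, arrays of inverted GAA units in promoters. In the kidney, chaperones of this group are best known in tubule cells recovering from loss of blood flow. The HSP70 machine consists of the ATPase itself (Hspa1a, Hspa1b, Hspa8), J-domain proteins that bring substrates to it (Dnajb1) and exchange factors that release ADP (Hsph1, Bag3). HSP90 (Hsp90aa1) acts on clients that HSP70 hands over, and the small heat shock proteins (Hspb1, Cryab) hold unfolded proteins without using ATP.

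Promoter sequence from RefSeq on build GRCm38.p6 was at hand for 6 of the 10 genes, as windows from 250 bases before to 50 bases after the transcription start. The windows of 4 genes held a paired heat shock element before the start, and only these are printed. The element was searched as GAANNTTC and TTCNNGAA, each of which reads the same on both strands, and matches are in capitals. Only bases before the start are shown, the last printed base being position -1. For Hspa1a and Hspa1b the printed part is the 250 bases before the start, chr17:34972157-34972406 and chr17:34959239-34959488, both on the minus strand. For Hspb1 and Hsph1 only the last 150 bases before the start are printed. These are chr5:135887769-135887918 on the plus strand for Hspb1 and chr5:149636337-149636486 on the minus strand for Hsph1.
Hspa1a: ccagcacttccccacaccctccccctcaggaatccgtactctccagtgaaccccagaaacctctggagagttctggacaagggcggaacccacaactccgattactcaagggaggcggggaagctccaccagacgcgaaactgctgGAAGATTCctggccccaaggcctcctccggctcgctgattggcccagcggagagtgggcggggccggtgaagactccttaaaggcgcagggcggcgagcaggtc
Hspa1b: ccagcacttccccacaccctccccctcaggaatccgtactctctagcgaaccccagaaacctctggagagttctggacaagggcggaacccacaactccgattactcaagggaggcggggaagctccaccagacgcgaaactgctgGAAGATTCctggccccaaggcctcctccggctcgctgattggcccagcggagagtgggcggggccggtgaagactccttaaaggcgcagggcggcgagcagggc
Hspb1: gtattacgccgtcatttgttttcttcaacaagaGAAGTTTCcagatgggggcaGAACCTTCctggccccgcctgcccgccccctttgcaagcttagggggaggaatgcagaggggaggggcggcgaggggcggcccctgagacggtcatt
Hsph1: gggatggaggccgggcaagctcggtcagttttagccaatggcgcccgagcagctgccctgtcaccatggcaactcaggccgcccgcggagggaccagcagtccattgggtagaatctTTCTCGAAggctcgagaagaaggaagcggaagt
The neighbouring genes Hspa1a and Hspa1b shared 98.8% of 250 bases, with 3 differences. Counted from 1 at the 5′ end of the printed window, with the Hspa1a base first, these were C44T, T47C and T249G. Both held GAAGATTC from position -104 to -97 and a reversed CCAAT box from -67 to -63. Hspb1 held 2 elements, GAAGTTTC from -117 to -110 and GAACCTTC from -97 to -90. Hsph1 held TTCTCGAA from -33 to -26 of its upstream start, and a match of 3 units, TTCTGGAAAGTTC, from 37 to 49 after it. Bag3 held GAAGTTTC from 43 to 50 after its start, and the 2 windows of Dnajb1 held neither form. Shares over all 32851 windows count matches on either side of the start, unlike the count of 4 genes above. They were 15.1% for either paired element, 7.86% for GAANNTTC, 8.52% for TTCNNGAA and 37.4% for a CCAAT box. The form of 3 alternating units (TTC, GAA and TTC with any 2 bases between units, or its reverse complement) had 0.603%. A match is a description of the letters and not a measured binding site.

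The arrays as deposited shared 1 trimmed mean, and median signals ran from 61.3 to 77.6. The Tlr4 probe set with the largest gap between genotypes had signals of 65.6 to 120.4 on the 6 WT arrays and 0.901 to 3.38 on the 6 TLR4 null arrays. Of the other 3, another separated the genotypes and 2 overlapped. Kidney tubule markers were bright on every array: the summed signals of 9 proximal tubule markers ran from 54193.4 to 75465.8, and those of 6 markers of the loop of Henle and distal tubule from 34988.7 to 48648.8. The 18S 3' control probe set stood apart on the TLR4 null ischemic arrays, at 2287.2, 2645.9 and 1410.4 (replicates 1, 2 and 3) against 303.7 to 574.1 on the other 9 arrays.

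Clamping raised the whole chaperone group in wild-type kidneys. All 9 genes rose, and for each the 3 ischemic arrays lay above the 3 sham arrays. Of all 14316 genes tested, 9.18% rose and 10.5% fell in this comparison, and 15.6% had ischemic signals wholly above sham signals. The median log2 fold change was 2.79 over the 9 genes and -0.09 over all genes. Fold changes here and below are differences of log2(signal + 15) with their standard errors, 3 arrays per group. They were tested with limma, with p adjusted over all genes, and a gene is said to rise or fall where the adjusted p was under 0.05. In whole-kidney RNA, more RNA per cell and more cells of a type that expresses a gene cannot be told apart. Among markers of other cells, 2 of 5 measured neutrophil markers (S100a8 and S100a9, of 8 listed) rose with ischemia in both genotypes. The summed signal of the 5 ran from 503.5 to 600.1 in WT sham, 963.1 to 1482.1 in WT ischemic, 351.6 to 564.1 in TLR4 null sham and 562.8 to 851.1 in TLR4 null ischemic kidneys. Its part in the chaperone signals was not tested.

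**Figure D1:**
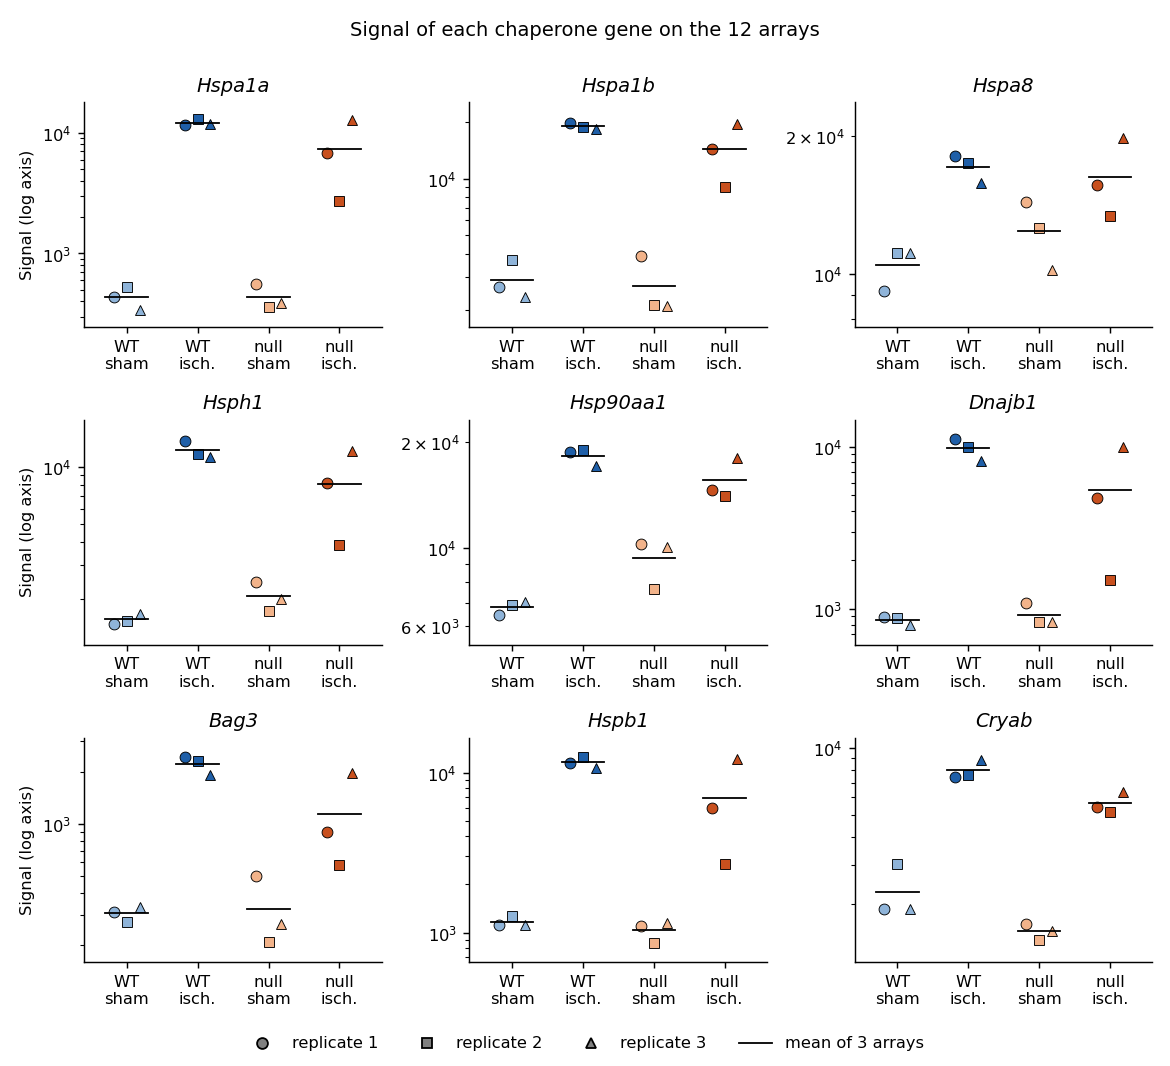
Signal of the probe set standing for each of the 9 chaperone genes (y axis, log scale, separate range per panel) on the 12 arrays, by group (x axis). Points are single arrays, symbol shape gives the replicate number, and lines are means of 3 arrays. For Hspa1a the WT ischemic points lie close together, from 11639.6 to 12960.0, and the TLR4 null ischemic points are spread out, at 6758.4, 2709.6 and 12724.1.

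Among the HSP70 ATPases, Hspa1a had the largest rise of the 9 genes. This stress-inducible HSP70 gave 432.7, 523.6 and 339.6 in WT sham kidneys (replicates 1, 2 and 3 here and below) and 11639.6, 12960.0 and 11894.4 in WT ischemic kidneys. The WT ischemic signals sat within a narrow band far above sham, a mean ratio of 28.2 and a log2 fold change of 4.79 ± 0.37 (limma adjusted p = 4.03e-07). TLR4 null sham signals, 556.9, 360.5 and 388.6, overlapped those of WT sham. The TLR4 null ischemic kidneys gave 6758.4, 2709.6 and 12724.1, all above every sham array, with replicate 3 inside the WT ischemic range and replicates 1 and 2 below it. The null response was 3.80 ± 0.37 (limma adjusted p = 3.92e-06).

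Hspa1b, the adjacent and nearly identical second copy, followed the same order among the TLR4 null ischemic arrays. Its signals were 2652.8, 3691.4 and 2357.5 in WT sham and 19812.9, 18789.5 and 18394.5 in WT ischemic kidneys. They were 3868.5, 2143.7 and 2096.1 in TLR4 null sham and 14340.8, 8995.6 and 19675.2 in TLR4 null ischemic kidneys. It rose by 2.73 ± 0.26 in wild type (limma adjusted p = 2.76e-06) and by 2.39 ± 0.26 in TLR4 null kidneys (adjusted p = 1.05e-05). Because the copies are so alike, signal on probes of one may come in part from the other, and the split between them is uncertain.

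Hspa8, the constitutive HSP70 (HSC70) that is abundant without stress, moved least. It read 9175.0, 11145.7 and 11144.8 in WT sham and 18052.3, 17464.9 and 15787.7 in WT ischemic kidneys. Those groups did not overlap, and the rise was 0.71 ± 0.14 (limma adjusted p = 0.0022). TLR4 null signals were 14351.5, 12617.4 and 10214.9 after sham surgery and 15636.6, 13359.8 and 19794.2 after ischemia. These groups overlapped, since ischemic replicate 2 lay below sham replicate 1, and the difference of 0.39 ± 0.14 did not pass (limma adjusted p = 0.0643). It passed without TLR4 null ischemic replicate 2 (0.52, adjusted p = 0.0194) and without TLR4 null sham replicate 1 (0.50, adjusted p = 0.0335).

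The partners of HSP70 rose strongly. Dnajb1, the J-domain protein that stimulates HSP70 to hydrolyse ATP, read 888.2, 884.5 and 792.8 in WT sham and 11122.0, 9916.6 and 8184.2 in WT ischemic kidneys, an increase of 3.48 ± 0.43 (limma adjusted p = 3.78e-05). TLR4 null kidneys gave 1093.7, 827.4 and 835.6 after sham surgery and 4823.6, 1498.4 and 9880.9 after ischemia, an increase of 2.17 ± 0.43 (adjusted p = 0.00192). Among the probe sets used, none varied more on the log2 scale across the TLR4 null ischemic arrays. Replicate 3 fell within the WT ischemic range, while replicate 2 was only slightly above the sham arrays. The null response was 2.90 without ischemic replicate 2 and 1.55 without ischemic replicate 3, and it passed in both.

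Hsph1 (HSP110), an exchange factor that reloads HSP70 with ATP and helps it to dissolve aggregates, read 1472.0, 1526.9 and 1662.9 in WT sham and 13763.0, 11748.6 and 11244.8 in WT ischemic kidneys. TLR4 null signals were 2467.6, 1716.7 and 1988.5 after sham surgery and 8218.3, 3848.8 and 12188.3 after ischemia. It rose by 2.96 ± 0.28 in wild type (limma adjusted p = 2.76e-06) and by 1.83 ± 0.28 in TLR4 null kidneys (adjusted p = 2.35e-04). All 3 TLR4 null sham arrays were above the WT sham arrays for this gene, a difference of 0.39 ± 0.28 that did not pass (limma adjusted p = 0.753).

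Bag3, an exchange factor that links HSP70 and small heat shock proteins to selective autophagy, read 311.5, 272.8 and 332.7 in WT sham and 2414.8, 2295.8 and 1909.0 in WT ischemic kidneys. TLR4 null signals were 501.8, 207.5 and 264.1 after sham surgery and 900.8, 578.8 and 1957.0 after ischemia. The ischemic arrays were above the sham arrays in each genotype, with TLR4 null ischemic replicate 2 close to sham replicate 1. Bag3 rose by 2.79 ± 0.34 in wild type (limma adjusted p = 3.49e-05) and by 1.69 ± 0.34 in TLR4 null kidneys (adjusted p = 0.00227).

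Hsp90aa1, the stress-inducible form of HSP90, had a smaller rise from an already high signal. It read 6462.0, 6897.8 and 7017.2 in WT sham and 18747.8, 19054.7 and 17087.4 in WT ischemic kidneys. TLR4 null signals were 10295.9, 7638.3 and 10103.2 after sham surgery and 14613.7, 14061.9 and 18027.1 after ischemia. It rose by 1.43 ± 0.12 in wild type (limma adjusted p = 7.43e-07) and by 0.74 ± 0.12 in TLR4 null kidneys (adjusted p = 3.11e-04). Its TLR4 null sham arrays were all above the WT sham arrays, and its ischemic arrays overlapped between the genotypes.

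The small heat shock proteins differed from each other. Hspb1 (HSP25 in mouse), a holdase that also binds actin filaments, read 1111.6, 1278.7 and 1121.7 in WT sham and 11438.1, 12601.4 and 10722.7 in WT ischemic kidneys. TLR4 null kidneys gave 1096.4, 860.8 and 1154.1 after sham surgery and 5994.8, 2684.2 and 12198.9 after ischemia. It rose by 3.29 ± 0.34 in wild type (limma adjusted p = 7.54e-06) and by 2.48 ± 0.34 in TLR4 null kidneys (adjusted p = 1.10e-04), with a scatter among the TLR4 null ischemic arrays like that of Hspa1a and Dnajb1.

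Cryab (alpha B-crystallin), a holdase first known from the lens and present in the renal medulla, did not show that scatter. It read 1895.6, 3017.4 and 1898.7 in WT sham and 7391.2, 7557.0 and 8819.0 in WT ischemic kidneys. TLR4 null signals were 1622.8, 1388.6 and 1516.4 after sham surgery and 5446.2, 5179.6 and 6375.1 after ischemia. On the probe set used, TLR4 null arrays lay below WT arrays in both surgeries without overlap. The responses were near equal, at 1.83 ± 0.15 in wild type (limma adjusted p = 8.07e-07) and 1.90 ± 0.15 in TLR4 null kidneys (adjusted p = 5.05e-07). Markers of the collecting duct and medulla were also lower in TLR4 null kidneys, but not they alone. The means of all 6 measured of 8 listed were lower in both surgeries, against 51.6% of all genes in sham and 49.1% in ischemic kidneys. Their summed signals ran from 6128.6 to 8267.3 in WT sham and 5359.0 to 6160.8 in TLR4 null sham kidneys, ranges that overlapped. After ischemia they ran from 5648.8 to 6831.9 in WT and 4382.7 to 5571.6 in TLR4 null kidneys. In sham kidneys 4 of 4 measured fat markers and 7 of 7 monocyte and macrophage markers were lower too. With ischemia the medulla markers had a median difference of -0.30 in wild type and -0.37 in TLR4 null kidneys, while Cryab rose. The part of these markers in the Cryab difference was not tested.

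In TLR4 null kidneys, then, 8 of 9 chaperone genes rose and none fell, against 9.86% of all genes that rose and 11.7% that fell. The ischemic arrays lay wholly above the sham arrays for the same 8, against 13.9% of all genes. The median log2 fold change was 1.90 over the 9 genes and -0.07 over all genes. In order of the wild-type response the genes ran Hspa1a, Dnajb1, Hspb1, Hsph1, Bag3, Hspa1b, Cryab, Hsp90aa1 and Hspa8. From Dnajb1 to Hspa1b, no gap between neighbours in that order exceeded the larger of their standard errors.

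**Figure D2:**
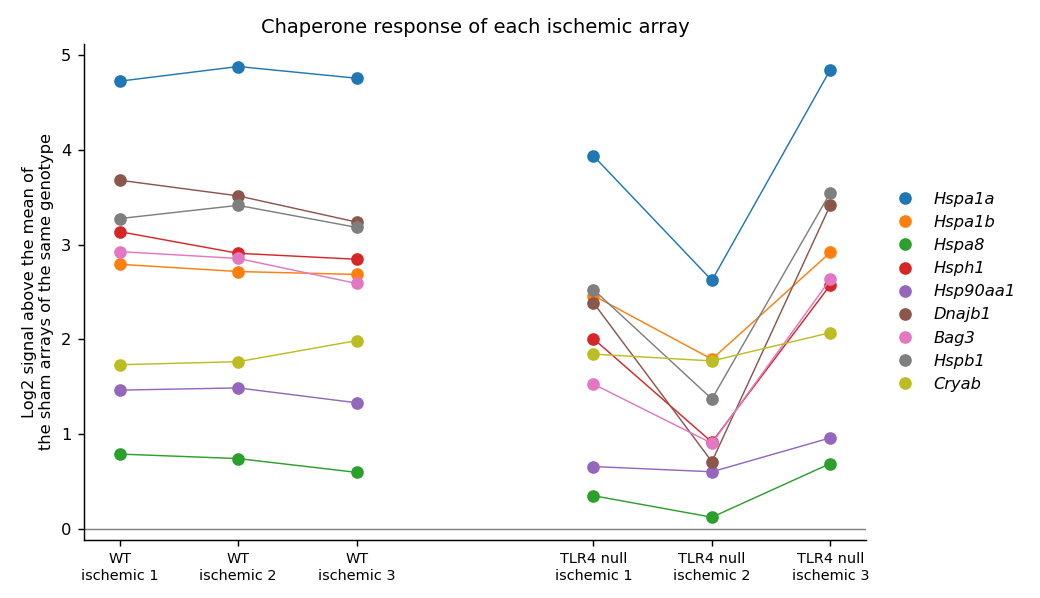
Log2 signal of each ischemic array above the mean of the 3 sham arrays of its genotype (y axis), for the 3 WT and 3 TLR4 null ischemic arrays (x axis). Each colour is a gene, and lines only join the points of a gene. In TLR4 null kidneys replicate 2 is lowest and replicate 3 highest for the probe set standing for each of the 9 genes. Dnajb1 is at 2.39, 0.71 and 3.42.

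The 3 TLR4 null ischemic kidneys differed among themselves in a way that ran through the group. Measured as log2 signal above the mean of the sham arrays of their genotype, the responses of Hspa1a were 4.73, 4.88 and 4.76 on the WT ischemic arrays and 3.94, 2.62 and 4.85 on the TLR4 null ischemic arrays. For Dnajb1 they were 3.68, 3.51 and 3.24 against 2.39, 0.71 and 3.42, and for Hspb1 3.27, 3.41 and 3.18 against 2.53, 1.37 and 3.55. The median over the 9 genes was 2.93, 2.85 and 2.69 on the WT arrays and 2.01, 0.91 and 2.63 on the TLR4 null arrays. Replicates 1 and 2 of the TLR4 null ischemic group both lay below all WT ischemic signals for 9 of 9 genes, against 15.2% of all genes. For Hspa8 the gap was small, 15636.6 against 15787.7. Replicate 3 was below all WT ischemic signals for Cryab alone among the 9, against 27.5% of all genes. These counts and the next are of the probe set used for each gene, and others could differ. Another Hspa8 probe set read 6054.6, 10413.5 and 9866.1, with replicate 2 highest and above WT ischemic replicate 1 (8388.6). A further one read 365.6, 375.3 and 624.3, with replicate 1 lowest. The descending order of replicates 3, 1 and 2, which was noted after the values were seen, held for all 9 members, for 23.5% of all genes and for 20.0% of the 1305 other genes that rose in wild type. Arrays of a group share no order by design, and the 9 genes were read from the same 3 kidneys, so they are not 9 separate observations of it.

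The spread put numbers on this. The standard deviation of log2 signal among the TLR4 null ischemic arrays was 1.37 for Dnajb1, and 99.8% of all genes had a smaller one. It was 1.12 for Hspa1a (99.3% smaller), 1.09 for Hspb1 (99.2%), 0.88 for Bag3 (97.6%), 0.84 for Hsph1 (97.3%) and 0.57 for Hspa1b (91.7%). Hspa8, Hsp90aa1 and Cryab were less scattered, at 0.29, 0.19 and 0.16. All these spreads are of the probe set used for each gene, and others could be wider. On the TLR4 null ischemic arrays another Hspa1b probe set read 10743.0, 2666.6 and 18747.4, and another of Hsp90aa1 10481.6, 6393.0 and 14973.9. Among WT ischemic arrays the 9 values ran from 0.06 for Hspa1b (9.16% smaller) to 0.22 for Dnajb1 (66.5% smaller), with Hspa1a at 0.08 (18.8%), Hsph1 at 0.15 (46.0%) and Bag3 at 0.18 (53.9%). The TLR4 null sham arrays were also far apart for Bag3, at 0.63 (94.2% smaller), and Hspa1b, at 0.50 (90.0%). The spread of Hspa1a was thus wide in 1 ischemic group and narrow in the other, and the difference of spreads was not tested.

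Some measures of the arrays moved with that order and others did not. Across TLR4 null ischemic replicates 1, 2 and 3, the 18S 3' signal was 2287.2, 2645.9 and 1410.4, lowest where the chaperones were highest. The ratio of actin 3' to 5' signal was 1.73, 1.83 and 2.01, against 1.68 to 1.99 on the other arrays, and median signals were 67.7, 63.2 and 74.4. Replicate 3 also had the highest signal of its group for 39.7% of all genes, against 9 of 9 chaperones. The summed signal of 5 neutrophil markers (of 8 listed) was 562.8, 691.2 and 851.1, that of 4 fat markers (of 7) was 9022.6, 2377.2 and 3195.8, and that of 9 proximal tubule markers was 56658.4, 54905.5 and 63920.0. The part of these measures in the spread of the chaperones was not tested.

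Whether the response to ischemia differed between the genotypes was tested as the difference of the responses, TLR4 null minus WT. None of the 9 genes passed, and 0.0% of all genes did. The estimate was below 0 for 8 of 9 genes and for 48.7% of all genes, the exception being Cryab at 0.07 ± 0.21, and the median was -0.81 over the 9 genes against 0.01 over all genes. At an unadjusted p under 0.05 there were 4 of 9 chaperones and 6.36% of all genes. These were Hsp90aa1 (-0.69 ± 0.16, limma unadjusted p = 7.67e-04, adjusted p = 0.448), Hsph1 (-1.13 ± 0.39, adjusted p = 0.654), Bag3 (-1.10 ± 0.48, adjusted p = 0.752) and Dnajb1 (-1.31 ± 0.60, adjusted p = 0.78). The Hsp90aa1 estimate holds a higher TLR4 null signal in sham kidneys (0.45 ± 0.12) and a lower one in ischemic kidneys (-0.24 ± 0.12). Other Hsp90aa1 probe sets gave -0.53 and -0.64, and at low signals -0.38 and 1.05. With all arrays kept but other processing, its estimate ranged from -0.76 to -0.24. The 95% intervals were wide, from -2.59 to -0.02 for Dnajb1 and from -2.09 to 0.12 for Hspa1a, so neither equal responses nor a response lower by 2 log2 units lay outside the Hspa1a interval. Narrower ones were those of Cryab (-0.38 to 0.52), Hspa8 (-0.75 to 0.10) and Hsp90aa1 (-1.04 to -0.34). None of the intervals is adjusted for the number of genes. Without TLR4 null ischemic replicate 2, the estimates shrank to -0.58 for Dnajb1, -0.40 for Hspa1a and -0.25 for Hspb1. Without replicate 3 they grew to -1.93, -1.51 and -1.34, and still no chaperone passed.

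**Figure D3:**
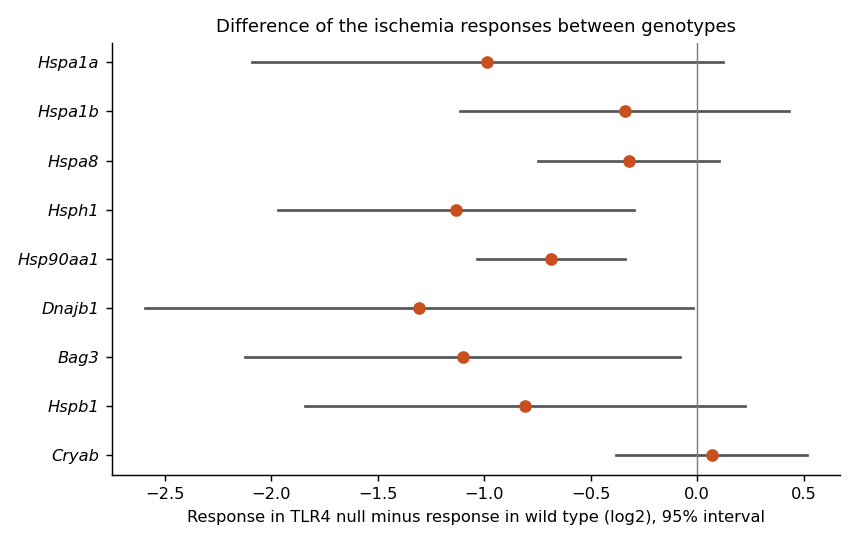
Difference of the ischemia responses, TLR4 null minus WT, on the log2 scale (x axis) for each chaperone gene. Points are limma estimates and bars their 95% intervals, not adjusted for the number of genes. Of 9 estimates 8 are below 0, Cryab is at 0.07, and none passed after adjustment over all genes.

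Ischemic kidneys of the genotypes were also set against each other directly, a comparison that uses the same ischemic arrays. All 9 chaperones had a lower mean in TLR4 null kidneys, against 49.1% of all genes, and none passed, against 0.657% of all genes called. The differences were -1.22 ± 0.43 for Dnajb1, -1.11 ± 0.34 for Bag3, -0.99 ± 0.34 for Hspb1, -0.98 ± 0.37 for Hspa1a and -0.74 ± 0.28 for Hsph1, with limma adjusted p from 0.189 to 0.865 over the 9 genes. Unadjusted p was under 0.05 for 6 of 9, against 11.4% of all genes. Signals were wholly below those of WT for 1 gene, Cryab (-0.48 ± 0.15), against 7.63% of all genes. A dim Cryab probe set went the other way without overlap (0.61 ± 0.36, mean signals 33.3 in TLR4 null and 17.4 in WT ischemic kidneys). With the mean of its probe sets the Cryab difference was -0.10. The differences depended on single arrays. Without TLR4 null ischemic replicate 2 they shrank to -0.48 for Dnajb1, -0.39 for Hspa1a, -0.43 for Hspb1, -0.29 for Hsph1 and -0.72 for Bag3, Hspa8 turned to 0.043, and none passed. Without TLR4 null ischemic replicate 3 the count went from 0 to 5. Bag3 (-1.58), Dnajb1 (-1.84), Hspa1a (-1.50), Hspb1 (-1.52) and Hsph1 (-1.12) then passed, with limma adjusted p from 0.00632 to 0.0264. Without WT sham replicate 2 the count was 1, Cryab (adjusted p = 0.0466).

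Markers of some other cells were also lower in TLR4 null than in WT ischemic kidneys, where 49.1% of all genes had a lower estimate. The means were lower for 4 of 4 measured fat markers (of 7 listed, median difference -1.13), 4 of 5 neutrophil markers (of 8, -0.48), 6 of 7 monocyte and macrophage markers (of 8, -0.31, 1 of them called) and 6 of 6 collecting duct and medulla markers (of 8, -0.31). In the remaining lists the medians were nearer 0. Lower means were found for 4 of 9 proximal tubule markers (0.03) and 5 of 6 of the loop of Henle and distal tubule (-0.12). The same held for 4 of 6 endothelial (-0.14) and 5 of 7 measured muscle markers (of 8, -0.06). Summed fat marker signals ran from 4350.9 to 12753.5 in WT ischemic and from 2377.2 to 9022.6 in TLR4 null ischemic kidneys, and those of monocytes and macrophages from 2434.7 to 2504.7 and from 2061.4 to 2223.6. Their part in the chaperone differences was not tested.

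Sham kidneys were compared between the genotypes in the same way. None of the 9 chaperones passed, against 0.314% of all genes, and the median difference was 0.01 over the chaperones and -0.01 over all genes. Unadjusted p was under 0.05 for Hsp90aa1 and Cryab, 2 of 9 against 9.34% of all genes. Hsp90aa1 was higher in TLR4 null sham kidneys by 0.45 ± 0.12 (limma adjusted p = 0.144), and Cryab was lower (-0.55 ± 0.15, adjusted p = 0.171). With the mean of its probe sets the Cryab difference was -0.32. Hsp90aa1 and Hsph1 had TLR4 null signals wholly above WT (8.12% of all genes did) and Cryab wholly below (8.62% did). The mean of the 5 Hsp90aa1 probe sets differed by -0.03. Its brighter probe sets were all higher in TLR4 null sham kidneys (0.45, 0.16 and 0.15). Those with low mean sham signals, from 10.9 to 58.5, were lower (-0.44 and -0.46). TLR4 null sham replicate 1 was the highest of its group for 8 of 9 chaperones and for 40.9% of all genes.

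The other probe sets of the same genes mostly repeated the response in wild type, where 21 of 23 rose and none fell (7.71% of all 30304 probe sets tested rose). Fold changes ran from -0.72 to 4.79. In TLR4 null kidneys 17 of 23 rose and none fell (8.5% of all), from -0.27 to 3.80. The probe sets of a gene share its RNA and are not separate replicates. For Hspa1b the 3 probe sets rose by 4.57, 3.93 and 2.73 in wild type, with mean sham signals of 711, 1165 and 2901. The used one thus had the highest signal and the smallest fold of the 3. For Hsp90aa1, 4 probe sets rose by 2.57, 2.05, 1.43 and 1.30 in wild type, and the fifth (-0.53 ± 0.36, adjusted p = 0.387), with mean signals of 39.4 to 62.5, did not pass. The third Cryab probe set, with mean signals of 17.4 to 43.5, did not pass either (-0.72 ± 0.36, adjusted p = 0.212). All 4 probe sets of Hspa8 rose in wild type, by 0.71 for 3 of them and by 1.24 for the other. Without TLR4 they read -0.22, 0.39, 0.29 and 0.74, and the last of these passed (adjusted p = 0.0339). The size of the Hspa1b and Hsp90aa1 responses and the TLR4 null call of Hspa8 therefore depend on the probe set.

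**Figure D4:**
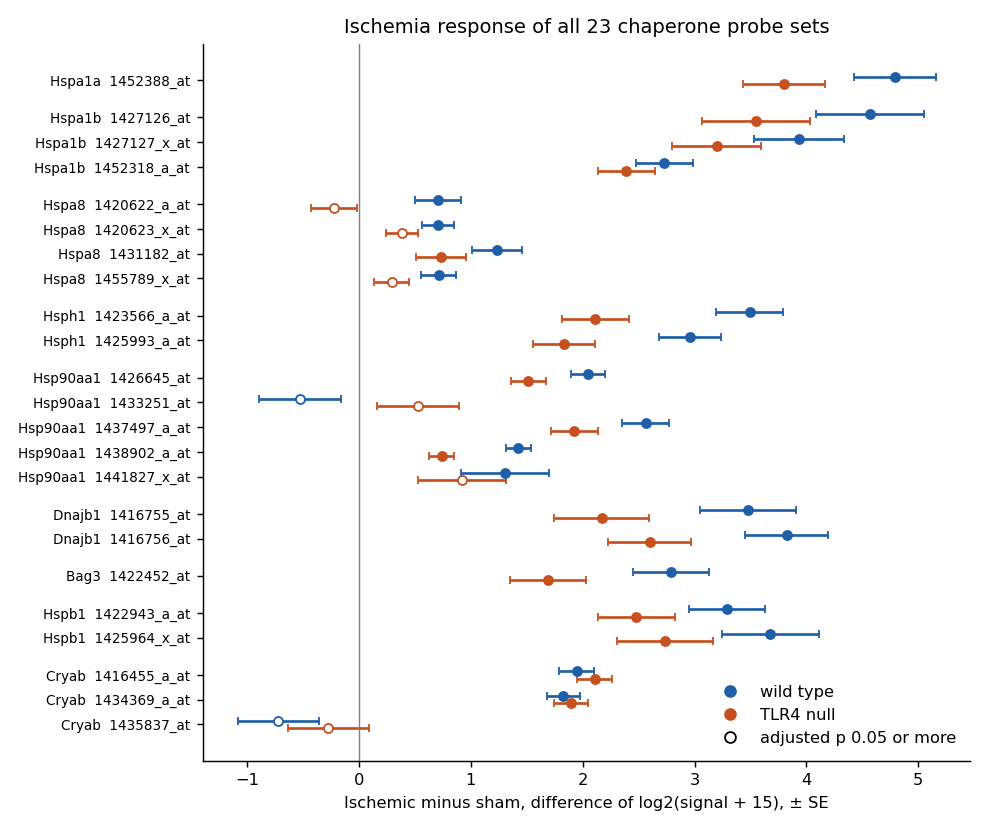
Ischemia response of all 23 chaperone probe sets (y axis, with the array's probe set names) as the difference of log2(signal + 15), ischemic minus sham (x axis), in WT (blue) and TLR4 null (orange) kidneys. Points are limma estimates, bars standard errors, and open points have an adjusted p of 0.05 or more over all probe sets. WT estimates run from -0.72 to 4.79.

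The wider chaperone network moved in part. Of 20 listed HSP70 co-chaperones and further cytosolic HSP70 proteins, 19 were tested. In wild type 9 rose and 1 fell (median 0.28), and in TLR4 null kidneys 8 rose and 1 fell (median 0.22). Of all genes, 9.18% rose and 10.5% fell in wild type, and 9.86% rose and 11.7% fell in TLR4 null kidneys. Dnajb4 and Dnaja1, J-domain proteins like Dnajb1, rose by 2.09 ± 0.22 and 1.77 ± 0.18 in wild type and by 1.46 ± 0.22 and 1.35 ± 0.18 in TLR4 null kidneys. Hspa4, a relative of Hsph1, rose by 1.14 ± 0.11 and 0.89 ± 0.11, and Dnajb2 by 1.12 ± 0.11 and 0.94 ± 0.11. These responses were smaller than those of Hspa1a or Dnajb1.

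Of 12 listed HSP90 co-chaperones, 10 were tested. In wild type 4 rose and 1 fell (median 0.08), against 9.18% and 10.5% of all genes. In TLR4 null kidneys 1 rose and 1 fell (median 0.16), near the shares of all genes, 9.86% and 11.7%. Stip1 (HOP), the adaptor that passes clients from HSP70 to HSP90, rose by 0.96 ± 0.17 and 0.71 ± 0.17. Fkbp4 (0.87 ± 0.15) and Chordc1 (0.81 ± 0.12) rose in wild type, and their values in TLR4 null kidneys, 0.36 ± 0.15 and 0.27 ± 0.12, did not pass (limma adjusted p = 0.115 and 0.129). Fkbp5, a co-chaperone of the glucocorticoid receptor and itself a glucocorticoid target, fell in both (-0.95 ± 0.10 and -0.80 ± 0.10). No difference of these responses between the genotypes passed (limma adjusted p = 0.641 for Chordc1 and 0.736 for Fkbp4).

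The list of heat shock factors and their regulators was tested only in part. Hsf1 itself was not among the genes tested. Hsf4 and Hsf5 had low signals, from 33.5 to 110.3 and from 43.2 to 136.7 over the 12 arrays. Of the 5 tested genes of that list none passed in either genotype, and Hsbp1, which binds and restrains HSF1, was at -0.19 ± 0.09 in wild type and -0.15 ± 0.09 in TLR4 null kidneys. These values are of RNA, and HSF1 is known to be switched on at the protein level. Of 7 other small heat shock proteins 5 were tested. Hspb6 fell in wild type (-0.50 ± 0.15, limma adjusted p = 0.0303), none rose, and none passed in TLR4 null kidneys. Of 14 chaperones of the endoplasmic reticulum and mitochondria 3 rose and 2 fell in wild type, against 9.18% and 10.5% of all genes. In TLR4 null kidneys 3 rose and 3 fell, against 9.86% and 11.7%. Serpinh1 (HSP47), the collagen chaperone, rose by 2.11 ± 0.26 and 1.55 ± 0.26, Dnajb9 by 0.99 ± 0.08 and 0.81 ± 0.08, and Hspa5 (BiP) by 0.86 ± 0.14 and 0.93 ± 0.14. Dnajc3, an endoplasmic reticulum J-domain protein, fell (-0.53 ± 0.09 and -0.49 ± 0.09). Over the same list the median was -0.05 in wild type and 0.05 in TLR4 null kidneys, close to the median of all genes.

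**Figure D5:**
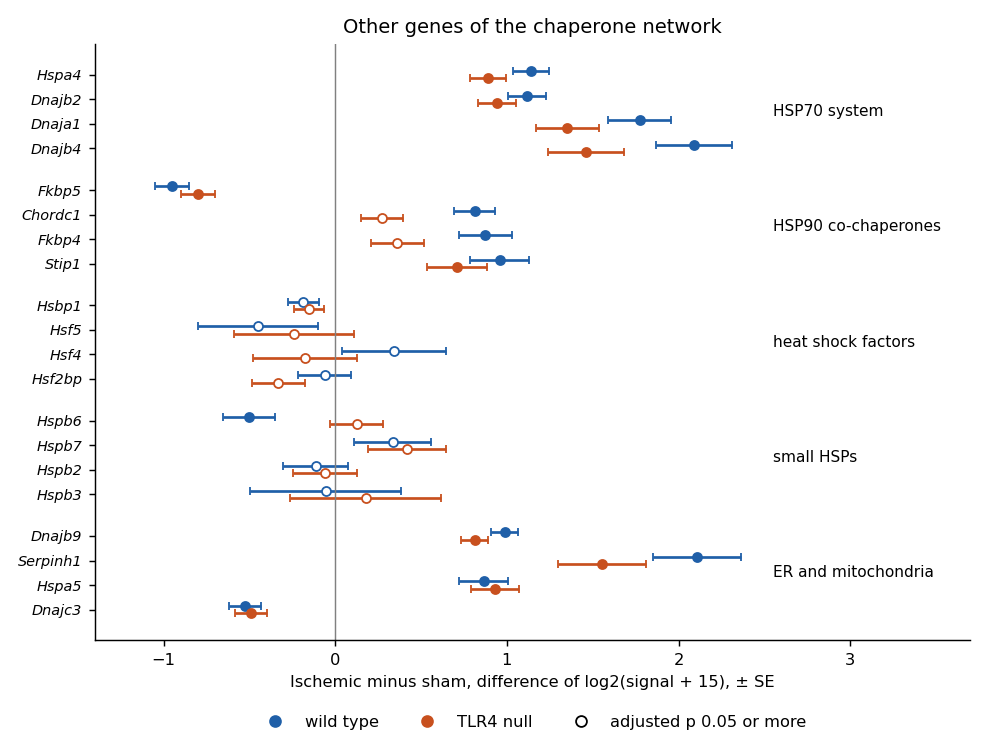
Ischemia response, ischemic minus sham difference of log2(signal + 15) (x axis), of up to 4 genes from each of 5 further chaperone lists (y axis) with the smallest p in wild type. Points are limma estimates in WT (blue) and TLR4 null (orange) kidneys, bars standard errors, and open points have an adjusted p of 0.05 or more over all genes. Serpinh1 (2.11) and Dnajb4 (2.09) are farthest right and Fkbp5 (-0.95) farthest left.

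Likeness to Hspa1a was measured as Pearson's r of log2 signal over the 12 arrays, which mostly reflects that 6 of them are ischemic. Outside the members the closest genes were Atf3 (r = 0.997), Pmaip1 (0.994), Jun (0.992) and Dnajb4 (0.990). Atf3 encodes a stress-induced transcription factor, Jun an AP-1 subunit and Pmaip1 the pro-apoptotic protein NOXA. Atf3 signals in TLR4 null ischemic kidneys were 2034.9, 975.7 and 3740.4, the order seen for the chaperones. With the 4 group means taken out, the r to Hspa1a over the 12 arrays was 0.958 for Dnajb1, 0.949 for Hspb1, 0.918 for Hsph1, 0.889 for Hspa1b, 0.836 for Bag3, 0.713 for Hspa8, 0.615 for Hsp90aa1 and 0.529 for Cryab. Outside the members it was highest for Ces5a (0.980), Atf3 (0.977), Clp1 (0.961) and H2aw (0.958). Ces5a, Clp1 and H2aw did not pass the ischemia test in either genotype. These values describe 12 arrays, share the scaling of each array, and rest largely on the spread of the 3 TLR4 null ischemic arrays.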

How the data were processed

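The submitters' processing notes name MAS5, with which the authors made the deposited signal intensity values, on a linear scale. Its version and scaling target were not given in the sources used here. Values ran from 0.0377 to 31317.3 and the deposited scaling was kept. Platform annotation gave 1 gene to 34958 of 45101 probe sets (64 controls), several to 932 and none to 9160, and 34754 matched the RefSeq gene table.

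Values were taken as log2(signal + 15). Testing required a signal above the 40th percentile of the array on 3 or more of 12 arrays (30304 probe sets). The brightest probe set by mean log2 value stood for each of 14316 genes (6422 had several). limma 3.58.1 in R 4.3.3 (lmFit, eBayes with trend) fitted 4 group means to 12 arrays, leaving 8 residual degrees of freedom. Tests were two-sided with Benjamini-Hochberg adjustment over all genes, or over all probe sets in a second fit. The steps were tested on simulated data. Tables and figures used Python 3.11.15, pandas 2.3.3 and matplotlib 3.10.9. All 9 measured chaperones are named, and up to 4 genes of each other chaperone list by smallest p in wild type. The members and lists were chosen with earlier results of these data known.

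Alternatives tried were quantile and median scaling, pseudocounts of 1 and 60, other filters, averaging the probe sets of a gene, no probe sets ending in _x_at or _s_at, a fit of all probe sets, only the groups compared, a replicate block, and leaving out each array. With 3 arrays per group, their number limits the precision.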

Additional observations from a re-analysis of the deposited data

How the results depend on the processing

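Under every alternative tried, including leaving out each array, the count of chaperones that rose in wild type was 9, and in TLR4 null kidneys it was 8 or 9. In the interaction and in sham kidneys it was 0 throughout. Between ischemic kidneys it was 0 except when arrays were left out, where it ranged from 0 to 5. The 5 came without TLR4 null ischemic replicate 3 and 1 came without WT sham replicate 2. Hspa8 in TLR4 null kidneys passed after quantile normalization (0.40, limma adjusted p = 0.00865), and its sign turned (-0.22) without probe sets ending in _x_at or _s_at, which replaces its probe set. Apart from Hsp90aa1 in sham kidneys (0.45), the other signs that turned were of estimates near 0. In sham kidneys Bag3 (-0.01) became 0.024 after quantile normalization, 0.039 after median scaling and 0.0015 with a pseudocount of 60, and Hsp90aa1 became -0.029 with the mean of its probe sets. The Cryab interaction became -0.0012 after median scaling. With single arrays left out, the sham difference ranged from -0.36 to 0.25 for Bag3, -0.18 to 0.15 for Hspa1a, -0.42 to 0.051 for Hspa1b and -0.038 to 0.16 for Dnajb1. The Cryab interaction ranged from -0.15 to 0.18 and the Hspa8 difference between ischemic kidneys from -0.24 to 0.043. The cause of these turns was not tested.

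Over all genes, median scaling lowered the count called from 2815 to 1789 in wild type, from 3088 to 2020 in TLR4 null kidneys and from 45 to 22 between sham kidneys. Between ischemic kidneys 94 genes became 47 with no filter, 17 with only those arrays fitted and 10 to 244 with single arrays left out. Between sham kidneys 45 became 82 with only those arrays fitted and 2 to 61 with arrays left out, and the interaction count went from 0 to 15 without TLR4 null ischemic replicate 3.

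Same-numbered arrays of different groups did not deviate together (r from -0.06 to 0.10 over 18 pairs). Over 36 differently numbered pairs r ran from -0.13 to 0.14. Such a check cannot exclude that the numbers pair the samples, and the main fit treated the arrays as unpaired. With the replicate number as a block, the chaperone counts were 9 in wild type, 8 in TLR4 null kidneys and 0 in the other comparisons, and 61 genes in place of 94 were called between ischemic kidneys.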

Other observations

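Zfand2a and Ier5, which are known as heat-inducible genes outside the chaperone families, were looked at after their values were seen. Zfand2a, an arsenite-inducible partner of the proteasome also called Airap, read 180.9, 185.4 and 189.5 in WT sham and 1592.0, 1174.3 and 1439.9 in WT ischemic kidneys (replicates 1, 2 and 3). In TLR4 null kidneys it read 176.5, 201.2 and 169.4 after sham surgery and 867.0, 660.1 and 1003.2 after ischemia, all below the WT ischemic arrays. Its sham signals were tight in both genotypes, and it rose by 2.81 ± 0.15 in wild type (limma adjusted p = 9.62e-09, 3 arrays per group) and by 2.10 ± 0.15 in TLR4 null kidneys (adjusted p = 1.41e-07). The difference of its responses was -0.71 ± 0.21 and did not pass (adjusted p = 0.557). Replicates 3, 1 and 2 of the TLR4 null ischemic group stood in the same descending order as for the chaperones.

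Ier5, an early response gene known to act on HSF1, read 225.0, 272.1 and 200.6 in WT sham and 695.8, 851.2 and 861.4 in WT ischemic kidneys. In TLR4 null kidneys it read 218.0, 133.6 and 253.1 after sham surgery and 620.8, 617.9 and 689.2 after ischemia. The 3 ischemic arrays were close together and all below the WT ischemic arrays. Their descending order was again 3, 1 and 2, with replicates 1 and 2 nearly equal. Ier5 rose by 1.73 ± 0.18 in wild type (limma adjusted p = 7.81e-06) and by 1.64 ± 0.18 in TLR4 null kidneys (adjusted p = 1.31e-05). The difference of its responses was -0.08 ± 0.26 and did not pass (limma adjusted p = 0.978).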
